A study of Mus musculus with 18 samples.

Results

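The genes of the mouse major histocompatibility complex (MHC) and of antigen presentation were followed through liver, kidney and lung of mice with and without overexpression of cyclin E1. The set holds 51 of the 24062 genes in the count table: the 44 whose symbol begins with H2- and 7 named ones, B2m, Tap1, Tap2, Tapbp, Nlrc5, Ciita and Cd74. They are taken by symbol alone. By role they are 3 classical class I genes, 29 nonclassical class I genes, 11 class II genes (5 chains and 6 accessory genes), the class I light chain, 3 peptide loading genes, 2 transactivators, and 2 genes that carry an H2- symbol for their position in the complex only. All mice were C57BL/6, carried the doxycycline-controlled activator rtTA, received doxycycline starting at 3 weeks of age and reached 4 months, when tissue was taken. CCNE-TA mice had in addition a Tet-inducible Ccne1 transgene, whereas TA mice carried rtTA alone. The promoter that drives rtTA is not given in the sources used here. RNA of whole tissue was sequenced with 3 libraries for each of the 6 combinations of tissue and genotype, numbered 1 to 3 as in their titles, and the comparisons ask what cyclin E1 does to each class in each tissue and how the tissues differ without it.

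Class I molecules are found on nearly all nucleated cells. They pair a heavy chain with beta-2 microglobulin and show peptides, carried into the endoplasmic reticulum by the TAP transporter, to CD8 T cells. Class II molecules are made mainly by dendritic cells, B cells and macrophages, travel with the invariant chain, and show peptides from endosomes to CD4 T cells. Interferon gamma raises both, class I through NLRC5 and class II through CIITA, which act on promoter elements called the X and Y boxes, while class I promoters also carry an NF-kappaB site and an interferon element.

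Of the 47 genes with coordinates on mm10 in the GENCODE M21 annotation, 43 lie on chromosome 17, and B2m, Nlrc5, Ciita and Cd74 lie elsewhere. The promoters below show where such motifs lie in a classical class I gene, the light chain, the liver-enriched nonclassical gene H2-Q10 and a class II chain. Each is the 250 bases before the RefSeq start of the gene on GRCm38.p6, written 5′ to 3′ on the strand of the gene, with matches to any of 5 motifs in capitals. The windows are chr17:34000348-34000597 on the minus strand for H2-K1, chr2:122147437-122147686 on the plus strand for B2m, chr17:35469839-35470088 on the plus strand for H2-Q10 and chr17:34287824-34288073 on the minus strand for H2-Aa.
H2-K1: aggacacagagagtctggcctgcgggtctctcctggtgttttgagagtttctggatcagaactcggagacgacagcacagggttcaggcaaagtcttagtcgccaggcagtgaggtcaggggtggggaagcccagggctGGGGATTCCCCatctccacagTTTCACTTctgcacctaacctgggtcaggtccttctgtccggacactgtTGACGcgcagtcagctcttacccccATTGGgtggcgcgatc
B2m: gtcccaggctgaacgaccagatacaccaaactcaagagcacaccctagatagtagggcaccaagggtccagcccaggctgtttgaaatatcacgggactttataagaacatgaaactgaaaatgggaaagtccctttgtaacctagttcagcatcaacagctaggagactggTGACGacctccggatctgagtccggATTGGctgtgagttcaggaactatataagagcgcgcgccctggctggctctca
H2-Q10: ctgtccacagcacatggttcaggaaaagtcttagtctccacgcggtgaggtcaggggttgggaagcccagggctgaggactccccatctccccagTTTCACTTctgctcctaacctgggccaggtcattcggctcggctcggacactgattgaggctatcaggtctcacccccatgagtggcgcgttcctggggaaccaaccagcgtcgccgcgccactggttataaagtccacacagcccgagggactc
H2-Aa: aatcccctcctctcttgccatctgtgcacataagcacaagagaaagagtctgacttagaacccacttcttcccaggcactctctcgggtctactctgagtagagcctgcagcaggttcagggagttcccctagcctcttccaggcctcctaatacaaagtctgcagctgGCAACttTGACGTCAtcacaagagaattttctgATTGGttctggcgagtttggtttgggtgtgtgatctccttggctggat

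The motifs, searched on both strands, were the kappaB site (the first capitals of H2-K1), the interferon element core TTTCACTT, the X2-like TGACG, the X1-like GCAAC and the Y box ATTGG. They were found in 0.0304%, 1.36%, 17.8%, 29.9% and 33.8% of 32851 mouse promoter windows of the same length. The 3 shortest are thus common in any promoter. H2-K1 holds the kappaB site 111 bases, the interferon core 90, the X2-like motif 41 and the Y box 16 bases before its start. H2-D1 holds the same 4 motifs in the same order, at 171, 150, 101 and 76 bases, and GCAAC besides. B2m holds the X2-like motif and the Y box, at 78 and 53 bases, and H2-Q10 only the interferon core, at 155 bases. H2-Aa holds the X1-like motif 81, the X2-like motif 74 and the Y box 48 bases before its start; its X2-like match lies on both strands as the palindrome TGACGTCA. A RefSeq window was matched for 35 of the 51 genes. The interferon core was in 9 of these, all of them class I heavy chain genes, and the Y box in 30. These matches are letters in a window and not evidence of binding.

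The labels held in the data. Ccne1 stood at 3.57 to 4.96 CPM (counts scaled to an equal library size) in TA and 368 to 589 CPM in CCNE-TA liver, at 1.32 to 2.16 and 408 to 744 CPM in kidney, and at 0.701 to 4.14 and 45.4 to 85.6 CPM in lung. Summed hepatocyte markers reached at least 149637 CPM in every liver library and at most 1434 CPM elsewhere, kidney tubule markers at least 16338 CPM in kidney and at most 57.9 CPM elsewhere, and lung epithelial markers at least 32864 CPM in lung and at most 122 CPM elsewhere. A library held 26214869 to 61954486 counts in liver, 20352770 to 43202066 in kidney and 41597623 to 155323865 in lung. CPM values carry the TMM factors (edgeR's scaling for composition) of all 18 libraries, while fold changes between genotypes come from a fit within each tissue. Some libraries stand apart: pancreas acinar markers summed to 273 CPM in liver TA 1 and 69 CPM in liver TA 2 against at most 2.38 CPM in the other liver libraries. Xist was at 708 CPM in liver TA 1 and under 1 CPM in TA 2 and TA 3, and at 1360, 1157 and 5.18 CPM in CCNE-TA 1, 2 and 3, so that sex is not balanced between the liver genotypes. Lung CCNE-TA 1 and TA 3 also stood apart, and results are given without them below.

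Of the 51 genes, 35 passed the filter on low counts in at least 1 tissue, 29 in all 3, and 16 in none. Tested were 30 genes for liver, 31 for kidney and 35 for lung, and counts below refer to these. The 16 others are H2-Q6, H2-Q7, H2-Q8, H2-Q9, H2-T9, H2-T22, H2-M1, H2-M9, H2-M11, H2-M10.1 to H2-M10.6 and the class II pseudogene H2-Ea-ps, which is not expressed in the C57BL/6 haplotype; 8 of them had no read in any of the 18 libraries. H2-Eb2, H2-L and H2-T3 were tested in lung only, and their highest count in a library was 1001, 104 and 19 reads. A count of 3 corresponds to 0.013 to 0.15 CPM, and this covers counting error only. A listed 0 is not a sign of absence in the H2-Q and H2-T groups, since their members share sequence and how multi-mapped reads were treated is not given in the sources used here. In H2-Q7, 34.9% of the 50-base stretches of the longest transcript also occur in another gene. In H2-T10 the share was 42.9%, mostly with H2-T22, which stood at 0 to 0.308 CPM beside 4.58 to 40.9 CPM for H2-T10. For the classical genes it was 8.79% in H2-K1 and 14.3% in H2-D1, and 0% for the class II chains H2-Aa, H2-Ab1 and H2-Eb1. The kit does not mark strand, and exon bases shared with another gene reached 86.4% for H2-Ke6, 29% for Tapbp, 27.1% for H2-T10 and 19.1% for H2-Q4.

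In control tissue the classes had different homes. H2-K1, B2m and H2-Q10 were higher in liver than in either other tissue, and all class II genes tested were higher in lung than in liver. Levels between genes are compared per kilobase of the longest transcript, over 3 TA libraries (mean ± SD). H2-K1, the more abundant of the classical genes, stood at 1726 ± 148 CPM per kilobase in liver, 539 ± 94.3 in lung and 239 ± 14.8 in kidney. H2-D1 was flatter, at 171 ± 35.2 CPM per kilobase for liver, 162 ± 29.8 for lung and 110 ± 11.9 for kidney, and the liver and lung values overlap within their spread. B2m reached 3546 ± 330 CPM per kilobase in liver, 898 ± 169 in lung and 657 ± 124 in kidney. In the plot of control levels these 3 genes lie near the top in each tissue.

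**Figure D1:**
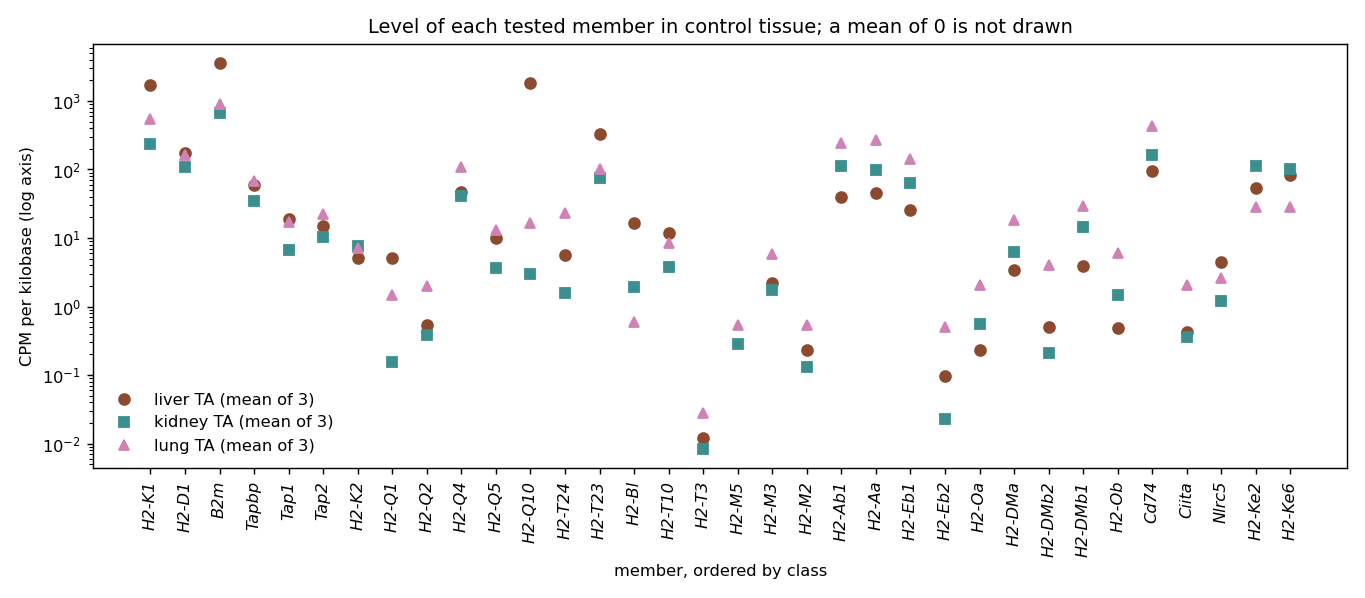
Mean level of each tested gene in the 3 TA libraries of liver (circles), kidney (squares) and lung (triangles), in CPM per kilobase of the longest transcript on a log axis; genes are ordered by class and H2-L has no transcript length. H2-Q10 stands at 1856 CPM per kilobase in liver, 16.8 in lung and 3.03 in kidney, while H2-Aa stands at 45.3, 266 and 97.3.

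Among nonclassical genes, H2-Q10, which encodes a secreted class I molecule of the liver, was at 1856 ± 375 CPM per kilobase in liver, as high as H2-K1 within their spread. It was at 3.03 ± 0.385 CPM per kilobase in kidney and 16.8 ± 12 in lung, a difference of log2 9.26 ± 0.60 between liver and kidney (SE, edgeR adjusted p = 3e-09). H2-T23, which encodes Qa-1, the ligand of the NKG2A receptor of NK cells, followed at 330 ± 35.7 CPM per kilobase in liver, 101 ± 14 in lung and 73.9 ± 11.8 in kidney. H2-Bl and H2-Q1 were also higher in liver than in kidney and lung by the edgeR test. H2-T24 and H2-M3, which presents formylated peptides, were instead highest in lung, at 23.2 ± 6.99 and 5.86 ± 0.299 CPM per kilobase. H2-Q10 alone made up 79.3% to 87.6% of the summed CPM of all nonclassical genes in liver TA and CCNE-TA libraries, but 2.18% to 5.24% in kidney and 0.773% to 14.6% in lung.

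The class II chains showed a different order, with the highest mean in lung and the lowest in liver. H2-Aa, the alpha chain of I-A, stood at 266 ± 63 CPM per kilobase in lung, 97.3 ± 24.2 in kidney and 45.3 ± 10 in liver. Its partner H2-Ab1 stood at 243 ± 75.5, 111 ± 29.3 and 40.1 ± 7.5, and H2-Eb1, the beta chain of I-E, at 144 ± 42.3, 62.5 ± 15.3 and 25.5 ± 6.41. The 3 chains thus kept 1 order of tissues. Cd74, the invariant chain, was at 429 ± 32.3 CPM per kilobase in lung, 160 ± 45.2 in kidney and 94.9 ± 20.2 in liver, and the groups of libraries of the 3 tissues did not overlap in CPM except for kidney TA 1 and liver TA 1. All 10 class II genes tested were higher in lung than in liver, with a median log2 difference of 2.58 against 0.14 over all genes. Against kidney, 4 of 10 were higher in lung: H2-DMa and H2-DMb2 of the peptide editor H2-M, H2-Ob of its inhibitor H2-O, and H2-Eb2. H2-Aa, H2-Ab1, H2-Eb1 and Cd74 did not pass that test (edgeR adjusted p = 0.0727, 0.157, 0.12 and 0.0726). Between liver and kidney these genes did not pass either (edgeR adjusted p = 0.157, 0.0674, 0.0937 and 0.321).

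Over all classes, 16 of 34 genes tested were higher and 8 lower in lung than in liver, where 35.8% and 32.6% of all 17155 genes were. Between lung and kidney the counts were 18 higher and 3 lower, against 29.6% and 27.6% of all genes, and between liver and kidney 12 higher and 4 lower, against 28.6% and 33.6%. In either direction edgeR called 68.5%, 57.3% and 62.2% of all genes in these contrasts, in the order given. DESeq2 called 23, 24 and 19 of the set, where it called 64.8%, 57.5% and 60.3% of all genes. The peptide loading genes Tap1, Tap2 and Tapbp were higher in lung than in kidney (log2 1.38 ± 0.39, 1.12 ± 0.31 and 0.93 ± 0.23, edgeR adjusted p = 0.00696, 0.006 and 0.00308), and none of the 3 passed between lung and liver. Nlrc5, the class I transactivator, was higher in liver than in kidney by log2 1.89 ± 0.63 (edgeR adjusted p = 0.0161), and Ciita, the class II transactivator, was higher in lung than in liver by log2 2.23 ± 0.79 (edgeR adjusted p = 0.0203). H2-M5 had 0 reads in every liver TA library and 0.284 to 0.885 CPM in lung TA. The 3 contrasts share their control libraries in pairs. Sex is not balanced between the control tissues. Xist was high in TA 1 alone in liver (708 CPM). In kidney (909 and 1056 CPM) and lung (472 and 496 CPM) it was high in TA 1 and TA 2. The part of sex in these contrasts was not tested. In whole tissue, more cells of a type and more RNA per cell cannot be told apart.

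In liver, cyclin E1 overexpression was accompanied by higher class I and class II transcripts. Of 30 genes tested, 14 rose in CCNE-TA and 0 fell, where 13.7% of all 13811 genes tested rose and 14.8% fell (edgeR, adjusted p under 0.05). DESeq2 called 16 higher and 1 lower, where it called 30.5% of all genes in either direction. The 14 are H2-K1, H2-D1, B2m, the nonclassical genes H2-K2, H2-Q1, H2-Q4 and H2-T10, the class II genes H2-Aa, H2-Ab1, H2-Eb1 and H2-DMb1, Nlrc5, and the non-MHC genes H2-Ke2 and H2-Ke6. The median log2 fold change of the tested genes was 1.27 for classical class I (2 of 2 called), 0.72 for nonclassical class I (4 of 11) and 1.30 for class II (4 of 9), beside 0.02 over all genes. These medians cover only genes that passed the filter, and a difference between the classes was not tested. Every CCNE-TA library lay above every TA library in 15 of the 30 (22.9% of all genes) and below in 1 (25.1%), and CCNE-TA 1 was the highest of the 6 in 19 (15.5% of all genes).

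Both classical heavy chains rose. H2-D1 stood at 434, 287 and 359 CPM in TA 1, 2 and 3 and at 1542, 960 and 1092 CPM in CCNE-TA 1, 2 and 3. Every CCNE-TA library lay above every TA library, and the difference was log2 1.75 ± 0.28 (edgeR adjusted p = 0.00584). H2-K1 stood at 3068, 2618 and 2698 CPM in TA and at 5570, 4195 and 4516 CPM in CCNE-TA. The groups did not overlap either, and the difference was log2 0.78 ± 0.25 (edgeR adjusted p = 0.0484). That call was kept in 3 of 15 alternatives, whose adjusted p ran from 0.00207 to 0.397 and whose log2 fold change ran from 0.30 to 0.97. The ratio of H2-K1 to H2-D1 was 7.06 to 9.14 in the TA libraries and 3.61, 4.37 and 4.14 in CCNE-TA 1, 2 and 3, without overlap.

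B2m, the light chain shared by all class I molecules, stood at 3373, 2841 and 2935 CPM in TA liver and at 10982, 8313 and 8199 CPM in CCNE-TA liver. The CCNE-TA libraries all lay well above the TA libraries, and the log2 fold change came to 1.60 ± 0.27 (edgeR adjusted p = 0.00679). Both H2-D1 and B2m were called in 14 of 15 alternatives, with adjusted p up to 0.106 and 0.12. In CPM, B2m was 0.96 to 0.978 times the sum of H2-K1 and H2-D1 in TA libraries and 1.46 to 1.61 times that sum in CCNE-TA libraries. The 3 peptide loading genes did not pass the test. Tap1 was at 70, 37.3 and 60 CPM in TA and 71, 56.8 and 85.6 CPM in CCNE-TA (log2 0.37 ± 0.27), Tap2 had a log2 fold change of 0.33 ± 0.20, and Tapbp, which encodes tapasin, reached 0.04 ± 0.19 (edgeR adjusted p = 0.321, 0.235 and 0.876). The genotypes overlap in each of these 3 genes.

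**Figure D2:**
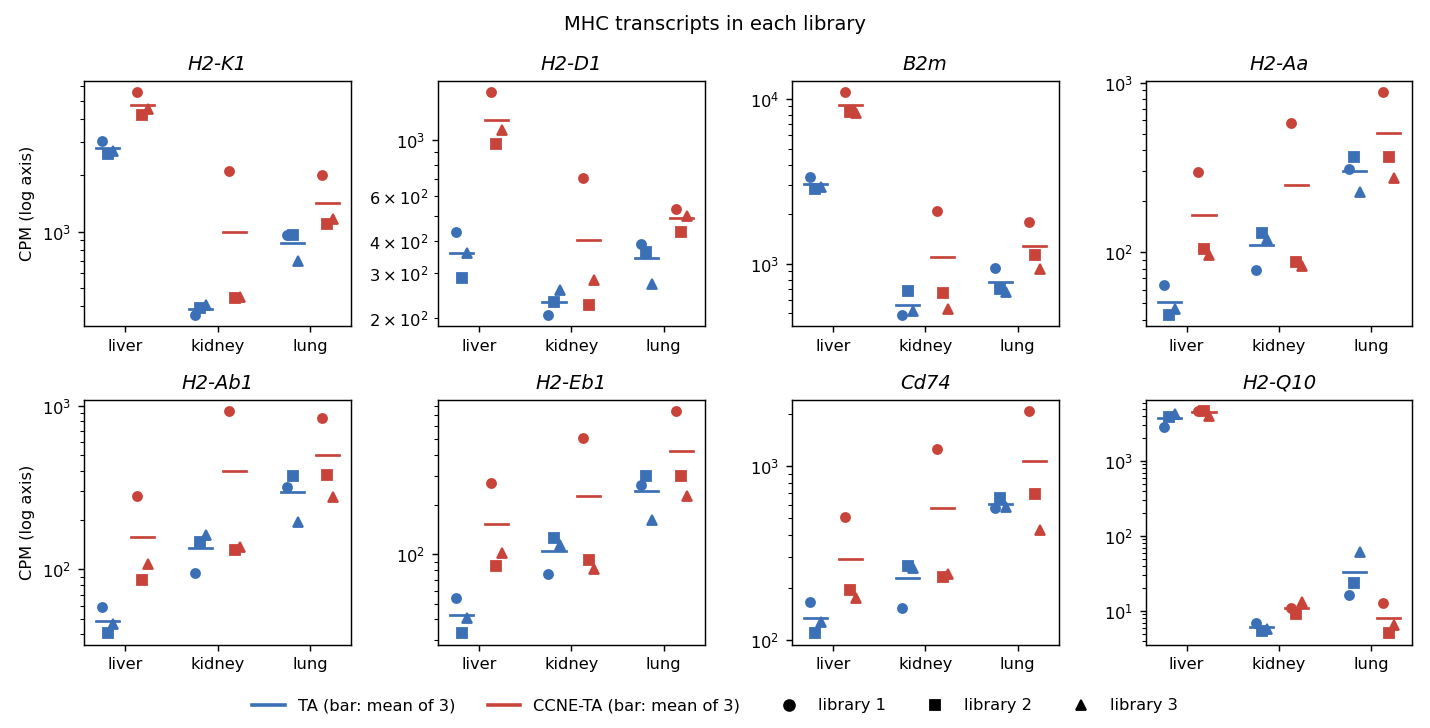
Levels of 8 genes by library and tissue (log axis, CPM), with TA in blue, CCNE-TA in red, the library number as the symbol and the mean of 3 as a bar. In liver the red points of H2-D1 (960 to 1542 CPM) lie above the blue ones (287 to 434 CPM), whereas in kidney the red circle of H2-K1 (2113 CPM) stands apart from all other kidney points (360 to 450 CPM).

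Among the nonclassical class I genes of the liver, the largest log2 fold change among those called was that of H2-K2, annotated as a transcribed pseudogene. It stood at 11.5, 6.21 and 6.37 CPM in TA and 44.3, 18.1 and 41.9 CPM in CCNE-TA, which is a difference of log2 2.13 ± 0.40 (edgeR adjusted p = 0.00912). H2-Q4, a secreted Q-region molecule, stood at 100, 64.7 and 85.5 CPM and 244, 126 and 226 CPM (log2 1.27 ± 0.29, edgeR adjusted p = 0.0163). For both genes the genotypes did not overlap. H2-Q1 rose by log2 1.21 ± 0.30 and H2-T10, annotated as a polymorphic pseudogene, by 1.16 ± 0.35 (edgeR adjusted p = 0.0216 and 0.0392). H2-T10 was called in 8 of 15 alternatives, and its TA 1 value of 29.7 CPM was well above TA 2 and TA 3 at 11.1 and 12.7 CPM. The most abundant nonclassical genes did not pass: H2-Q10 stood at 2861, 3924 and 4299 CPM in TA and 4695, 4644 and 3980 CPM in CCNE-TA (log2 0.27 ± 0.27, edgeR adjusted p = 0.466), and for H2-T23 it was log2 0.28 ± 0.27 (edgeR adjusted p = 0.465). Their genotype groups overlap.

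H2-T24 pointed the other way. It stood at 21.7, 7.71 and 7.64 CPM in TA and at 5.39, 5.79 and 5.13 CPM in CCNE-TA, so each CCNE-TA library was below each TA library, but its log2 fold change of -1.17 ± 0.42 did not pass (edgeR adjusted p = 0.0664, 0.0251 to 0.247 over the alternatives). Without TA 1, the highest library, it was -0.51. H2-M3, H2-M2, H2-Q5 and H2-Bl were also not called, at log2 fold changes of 0.56 ± 0.35, 1.49 ± 0.73, 0.72 ± 0.30 and -0.14 ± 0.29.

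The 3 class II chains tested in liver rose. H2-Ab1 stood at 58.5, 40.6 and 46.5 CPM in TA and at 282, 85.8 and 107 CPM in CCNE-TA, or log2 1.72 ± 0.43 (edgeR adjusted p = 0.0234). H2-Aa stood at 63.9, 42.7 and 46.5 CPM and 298, 104 and 96.2 CPM (log2 1.71 ± 0.44, edgeR adjusted p = 0.0246), and H2-Eb1 at 54.1, 32.9 and 40.8 CPM and 272, 84.9 and 101 CPM (log2 1.85 ± 0.44, edgeR adjusted p = 0.0206). For all 3 chains the genotypes did not overlap, and CCNE-TA 1 was more than 2 times as high as either other CCNE-TA library. Leaving it out lowered the log2 fold change of H2-Ab1 to 1.03, of H2-Aa to 1.01 and of H2-Eb1 to 1.16. The calls were kept in 9 of 15 alternatives for H2-Ab1 and H2-Aa and in 11 for H2-Eb1, with an edgeR adjusted p of at most 0.231, 0.243 and 0.221. With Xist as a covariate none of the 3 passed (edgeR adjusted p = 0.0639, 0.0682 and 0.0504). Of the accessory genes, H2-DMb1, a chain of the peptide editor, rose by 1.31 ± 0.34 (edgeR adjusted p = 0.0245). H2-DMa and Cd74 missed the threshold at log2 1.04 ± 0.41 and 1.14 ± 0.41 (edgeR adjusted p = 0.0871 and 0.0655). Cd74 was at 165, 109 and 127 CPM in TA and 512, 194 and 175 CPM in CCNE-TA, and relative to the summed class II chains it went from 0.936 to 0.949 in TA to 0.575 to 0.704 in CCNE-TA libraries. H2-Oa, H2-Ob and H2-DMb2, all under 4 CPM in liver, were not called.

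Of the transactivators, Nlrc5 rose and Ciita did not pass, and the difference between them was not tested. Nlrc5 stood at 45.9, 20.9 and 35.8 CPM in TA and 83, 48.6 and 77.2 CPM in CCNE-TA, without overlap (log2 1.04 ± 0.32, edgeR adjusted p = 0.0402). Ciita stood at 3.59, 2.3 and 1.85 CPM and 3.4, 2.05 and 3.02 CPM, with overlapping groups (log2 0.14 ± 0.40, edgeR adjusted p = 0.809). The call of Nlrc5 was kept in 8 of 15 alternatives, whose adjusted p ran from 0.0113 to 0.39, and was lost with Xist as a covariate (edgeR adjusted p = 0.0775) and in the fit of 18 libraries (0.212). The 2 genes with an H2- symbol but no MHC function, H2-Ke2 (Pfdn6, a prefoldin subunit) and H2-Ke6 (Hsd17b8, a steroid dehydrogenase), rose by log2 1.46 ± 0.27 and 0.52 ± 0.16 (edgeR adjusted p = 0.00895 and 0.0429). H2-Ke6 changed sign to -0.19 with a correction for transcript length and GC content.

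**Figure D3:**
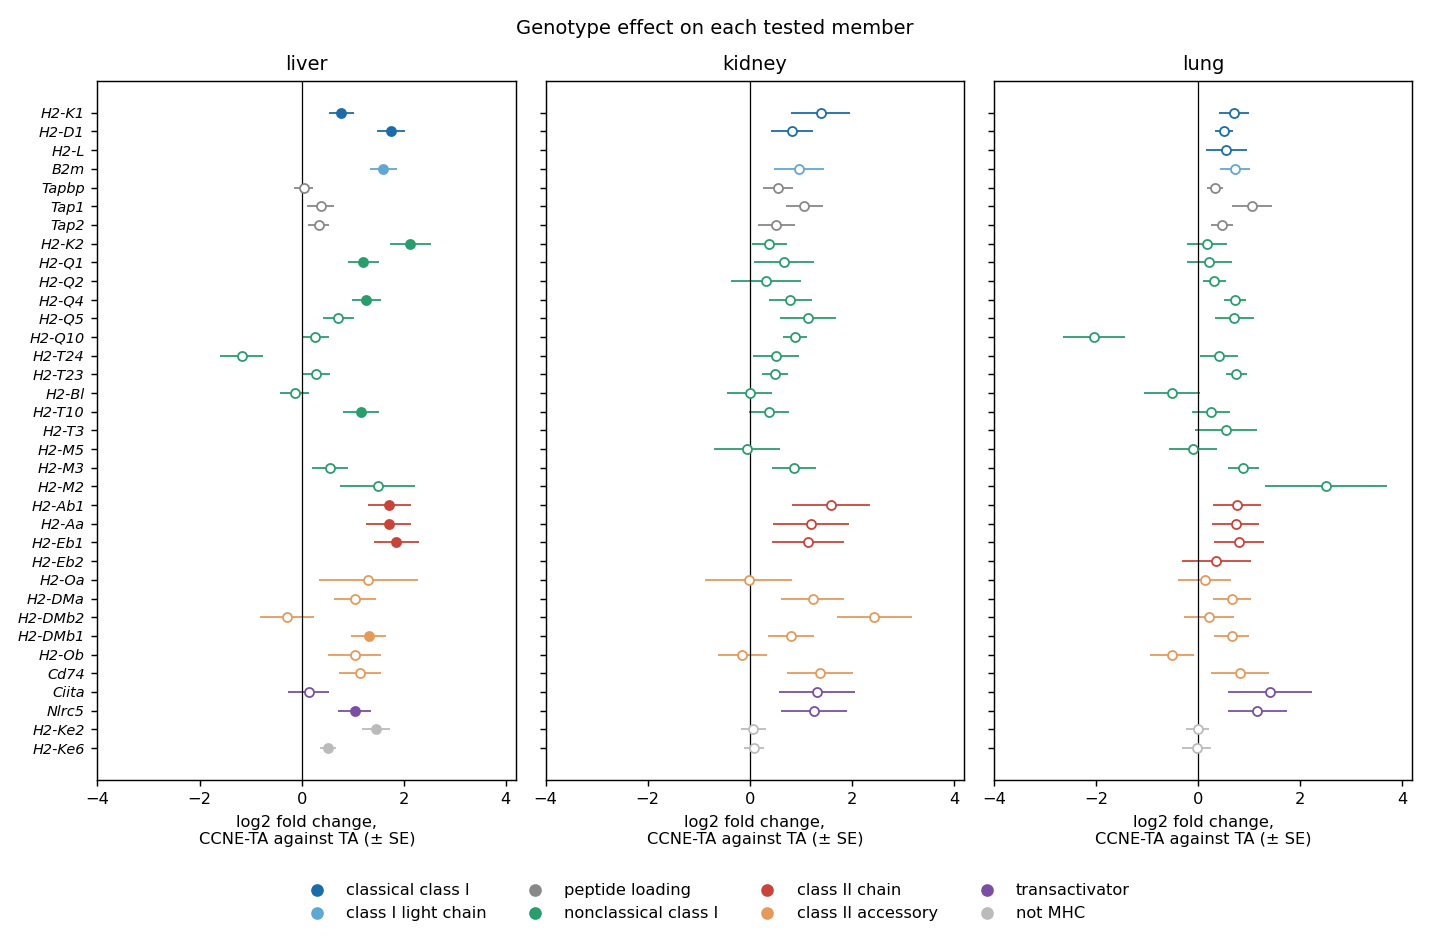
Log2 fold change of CCNE-TA against TA (± SE) for each tested gene in liver, kidney and lung, coloured by class; filled points passed an edgeR adjusted p of 0.05 and open points did not. In liver 14 points are filled, and in kidney and lung 0 are.

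The liver count differed with the libraries that entered. Without TA 2 or without TA 3 it was 4 each time, and without CCNE-TA 1 it was 8. The same 4 genes, H2-D1, B2m, H2-K2 and H2-Ke2, were called in all 6 fits that left out a library. Such a fit has fewer values for every gene. Calls over all genes in these fits are not given here, so the drop cannot be read as particular to this set. A term for TA 2 and TA 3 reads the genotype against TA 1 alone, a control arm of 1 library with no spread of its own. In that fit 0 genes passed as higher, with log2 fold changes of 1.47 for B2m and 1.63 for H2-K2, and 1 passed as lower, H2-T24, for which TA 1 is by far the highest library.

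Markers of other cells were read beside these genes in liver, where 13.7% of all genes were called higher and 14.8% lower. Summed markers of all leukocytes (5 genes) were 63.1 to 130 CPM in TA and 81.7 to 149 CPM in CCNE-TA, with 2 of 5 genes called higher. Dendritic cell markers (8 genes) were 8.8 to 15.7 CPM in TA and 19.9 to 39.4 CPM in CCNE-TA, with 3 of 8 called higher. Those of T and NK cells (9 genes) were 6.76 to 17.5 and 19.8 to 22.7 CPM, with 1 of 8 tested called higher. Macrophage markers (8 genes) were 462 to 1077 and 510 to 1046 CPM and B cell markers (6 genes) 3.57 to 8.38 and 3.16 to 15.3 CPM, with 0 called in either. Endothelial markers (5 genes) were 203 to 260 CPM in TA and 95 to 136 CPM in CCNE-TA, with 3 of 5 called lower. No marker of these lists was at 0 in all libraries of a liver group. Of the sums just given, only the dendritic, T and NK and endothelial ones separated the genotypes. The pancreas acinar sum did so too, at 2.38 to 273 CPM in TA and 1.64 to 2.22 CPM in CCNE-TA. The part of these cells in the MHC result was not tested.

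Other genes of the pathway changed in both directions in liver, where 28.5% of all genes were called. Of 12 listed class I processing genes 4 rose and 3 fell. Psme1, a subunit of the proteasome activator, and Psmb9, a subunit of the immunoproteasome, rose by log2 0.84 ± 0.21 and 0.90 ± 0.22 (edgeR adjusted p = 0.0203 and 0.0211). Erap1, which trims peptides in the endoplasmic reticulum, fell from 157 to 179 CPM to 49 to 87.5 CPM (log2 -1.34 ± 0.22, edgeR adjusted p = 0.0068), and the chaperone Canx fell from 505 to 583 CPM to 119 to 340 CPM (log2 -1.38 ± 0.35, edgeR adjusted p = 0.0235). Neither Erap1 nor Canx overlapped between genotypes. Of 10 class II processing genes 1 rose, the thiol reductase Ifi30 (log2 0.88 ± 0.23), and 1 fell, the ubiquitin ligase March8 (log2 -1.04 ± 0.17; edgeR adjusted p = 0.0237 and 0.00669). Of 18 genes that control MHC transcription 1 rose, Rfxank of the X box complex (log2 1.14 ± 0.28), and 1 fell, the interferon receptor kinase Jak1 (log2 -1.02 ± 0.18; edgeR adjusted p = 0.0206 and 0.00791). The median log2 fold changes of the 3 lists were -0.46, -0.14 and 0.12. None of their genes was called in kidney or lung, where 0.0131% and 0.00594% of all genes were.

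In kidney no gene of the set was called. Of 31 genes tested edgeR called 0, where it called 0.0131% of all 15247 genes, and DESeq2 also called 0; 4 genes had an unadjusted edgeR p under 0.05, as did 2.13% of all genes, and DESeq2 called 0.15% of all. The medians were nonetheless above 0, at 1.11 for classical class I, 0.50 for nonclassical class I and 1.20 for class II, with 1 library far above the rest. CCNE-TA 1 was the highest of the 6 libraries in 23 of the 31 genes, where it was so in 19.5% of all genes, and in 9 of 9 class II genes.

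H2-K1 stood at 360, 392 and 406 CPM in kidney TA and at 2113, 441 and 450 CPM in CCNE-TA 1, 2 and 3. H2-Ab1 stood at 94.5, 147 and 162 CPM and 930, 132 and 137 CPM, and Cd74 at 152, 266 and 259 CPM and 1255, 229 and 239 CPM. In each case CCNE-TA 1 was several times as high as any other kidney library, while CCNE-TA 2 and 3 lay within or just above the TA range. Ciita was at 1.27, 2.68 and 2.45 CPM in TA and 12.2, 1.47 and 2.34 CPM in CCNE-TA, and Nlrc5 at 9.66, 9.51 and 8.51 CPM and 47.7, 8.7 and 9.45 CPM, with the same library high. Without it the median log2 fold change was 0.17 for classical class I and 0.00 for class II. In that library summed leukocyte markers were 193 CPM against 49.4 to 67.1 CPM in the other 5, dendritic cell markers 43.6 against 12.5 to 18.4 CPM, T and NK cell markers 31 against 3.95 to 9.65 CPM, and macrophage markers 330 against 172 to 210 CPM. B cell markers there, at 6.21 CPM, lay within the 2.19 to 9.53 CPM of the others. Their part in the result was not tested.

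In 6 kidney genes every CCNE-TA library lay above every TA library, where 2.97% of all genes did so: H2-K1, Tap1, Tapbp, H2-Q1, H2-Q10 and H2-DMb2. H2-Q1 was near the floor, with 3 to 22 reads (0.113 to 0.45 CPM) in TA and 13 to 20 reads (0.492 to 0.539 CPM) in CCNE-TA. H2-DMb2 was also low, at 0.149 to 0.414 CPM in TA and 0.727 to 3.48 CPM in CCNE-TA. In 0 of the 31 did every CCNE-TA library lie below, against 2.75% of all genes. For H2-Q10 CCNE-TA 3 and not CCNE-TA 1 was the highest library, at 6.9, 5.44 and 5.76 CPM in TA and 11.1, 9 and 13.1 CPM in CCNE-TA (log2 0.88 ± 0.23, edgeR unadjusted p = 0.00434, adjusted p = 0.999). Alb, the hepatocyte marker, was at 153 to 221 CPM in TA and 123 to 202 CPM in CCNE-TA kidney, overlapping.

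In lung edgeR again called 0 of 35 genes, against 0.00594% of all 16823 genes; 8 had an unadjusted p under 0.05, as did 3.65% of all genes. CCNE-TA 1 was the highest library in 23 of the 35, where it was so in 27.8% of all genes, and in 9 of 10 class II genes. H2-Ab1 stood at 316, 373 and 194 CPM in TA and 844, 374 and 276 CPM in CCNE-TA, Cd74 at 577, 657 and 579 CPM and 2082, 695 and 427 CPM, and Ciita at 11.1, 11.3 and 14.3 CPM and 76.6, 10.7 and 10 CPM. For these 3 genes CCNE-TA 1 exceeds all others and the remaining libraries overlap. Without it the median log2 fold change of class II was -0.03 in place of 0.66. As in kidney, that library had the highest summed markers, with 664 CPM for leukocytes against 196 to 331 CPM in the others, 224 against 66.8 to 96.3 CPM for dendritic cells, 120 against 18.8 to 43.8 CPM for T and NK cells and 535 against 162 to 214 CPM for macrophages. Its B cell markers, at 40.2 CPM, lay within the 32 to 116 CPM of the others. The part of these cells in the result was not tested.

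In 9 lung genes every CCNE-TA library lay above every TA library, where 3.73% of all genes did so: H2-K1, H2-D1, Tap1, Tap2, Tapbp, H2-Q2, H2-Q4, H2-T23 and H2-M3. No class II gene was among them. H2-D1 stood at 390, 364 and 271 CPM in TA and 537, 435 and 501 CPM in CCNE-TA (log2 0.51 ± 0.18), and H2-K1 at 965, 957 and 697 CPM and 2011, 1098 and 1177 CPM (log2 0.70 ± 0.29). H2-T23 stood at 167, 153 and 127 CPM and 320, 216 and 220 CPM (log2 0.75 ± 0.21). The separation between genotypes was small next to the step to CCNE-TA 1 for H2-K1 and H2-T23 but not for H2-D1. None of the 9 passed the edgeR test, with an adjusted p of 1 for each. Without CCNE-TA 1 and TA 3 together the median of the classical genes fell from 0.55 to 0.28. Both medians are the values of H2-L, which stood at only 0.197 to 0.445 CPM in lung. In the same fit H2-K1 fell from 0.70 to 0.23 and H2-D1 from 0.51 to 0.30.

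**Figure D4:**
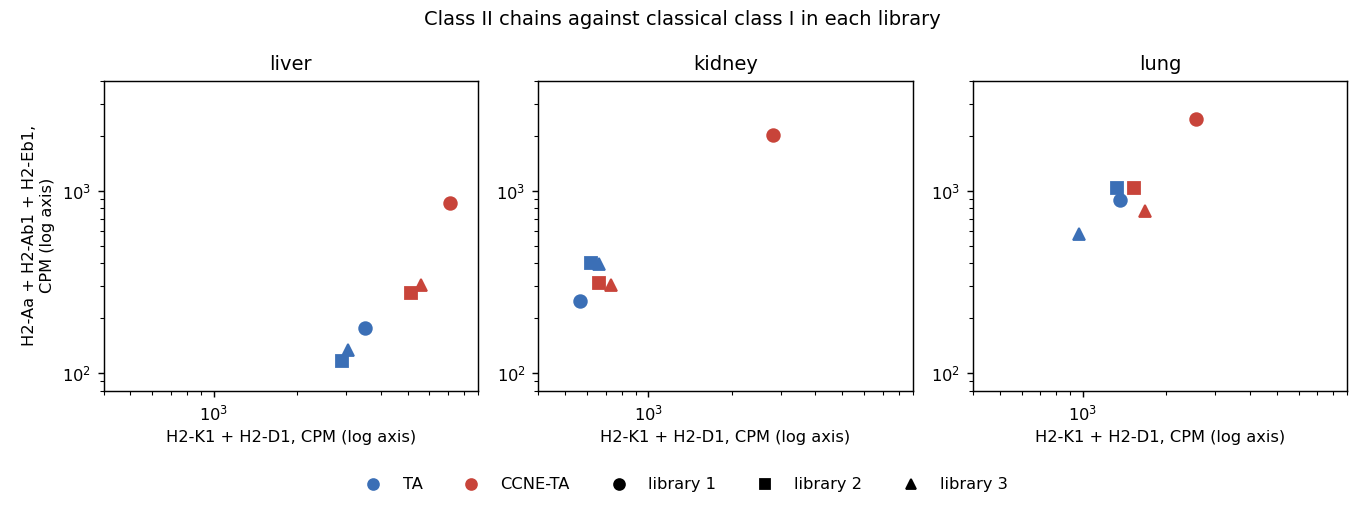
Summed class II chains (H2-Aa, H2-Ab1 and H2-Eb1) against summed classical class I (H2-K1 and H2-D1) in each library, in CPM on log axes, for liver, kidney and lung, with TA in blue, CCNE-TA in red and the library number as the symbol. CCNE-TA 1 lies at the upper right in each tissue, at 852, 2012 and 2469 CPM of class II, and the other liver CCNE-TA libraries (275 and 304 CPM) also lie above the TA ones (116 to 176 CPM).

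H2-Q10 was the one lung gene whose CCNE-TA libraries all lay below the TA libraries, where 4.24% of all genes did so. It stood at 16.2, 23.3 and 60.6 CPM in TA and 12.9, 5.03 and 6.59 CPM in CCNE-TA. The log2 fold change was -2.04 ± 0.60 with an edgeR adjusted p of 1. DESeq2 gave an adjusted p of 0.028, where it called 0.977% of all genes, and the edgeR fit of 18 libraries gave 0.0475 (the range over 15 alternatives was 0.028 to 1). TA 3 is the highest of the 6, and without it the log2 fold change was -1.29. Hepatocyte markers were also lower in CCNE-TA. Alb stood at 182, 288 and 948 CPM in TA and 139, 45.8 and 11.7 CPM in CCNE-TA lung. The sum of 5 hepatocyte markers stood at 284, 429 and 1434 CPM and 183, 83.1 and 38.2 CPM. Within CCNE-TA the order differed, with H2-Q10 lowest in CCNE-TA 2 and Alb lowest in CCNE-TA 3. Per 1000 CPM of Alb there were 63.9 to 562 CPM of H2-Q10 in lung and 15.3 to 35.8 in liver. Their part in the result was not tested.

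The balance of the classes can be read within a library. Class II chains amounted to 4% to 5.04% of the classical class I CPM in liver TA and to 12%, 5.33% and 5.43% in CCNE-TA 1, 2 and 3. In kidney the values were 44.1% to 64.5% in TA and 71.3%, 46.9% and 41.3% in CCNE-TA, and in lung 60% to 78.4% and 96.9%, 67.5% and 46.1%. The ratio thus lay above the whole TA range in every CCNE-TA liver library, but in kidney and lung only in CCNE-TA 1.

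The difference of the genotype effect between tissues was tested as an interaction in the fit of 18 libraries. That fit, also used for the tissue contrasts, treats all libraries as independent. The labels do not say whether libraries of the same number come from the same mouse. Xist was high in CCNE-TA 1 and 2 and low in CCNE-TA 3 in every tissue. TA showed the same order in kidney and lung but not in liver. CCNE-TA 1 had the most class II in each tissue. A pairing over tissues was not tested. Between liver and kidney 1 of 34 genes differed, where 9.52% of all genes did, and between liver and lung 3 of 34, where 12.7% did. All were more positive in liver, as were 4.78% and 6.23% of all genes, and 0 were more negative, as 4.74% and 6.51% were. DESeq2 called 3 and 4, where it called 17.4% and 19.9% of all genes. Against kidney these were H2-Ke2 and H2-K2, more positive in liver, and the class II gene H2-DMb2, more negative in liver (log2 -2.70, DESeq2 adjusted p = 0.0233, edgeR adjusted p = 0.0631). Against lung they were H2-Ke2, H2-K2, H2-D1 and H2-Q10, all more positive in liver. Between kidney and lung 0 did by edgeR, where 0.00583% of all genes did, 2 had an unadjusted p under 0.05, and DESeq2 called 1, H2-Q10, where it called 3.16% of the genes it tested. H2-Ke2 differed by log2 1.37 ± 0.37 between liver and kidney and by 1.43 ± 0.37 between liver and lung (edgeR adjusted p = 0.0344 and 0.0249). H2-K2 and H2-Q10 differed between liver and lung by 1.91 ± 0.61 and 2.29 ± 0.60 (edgeR adjusted p = 0.0499 and 0.0249). No class II gene differed between tissues in these edgeR tests, and neither did H2-D1 (edgeR adjusted p = 0.227 against kidney and 0.108 against lung) nor B2m (0.516 and 0.346), so calls in liver alone do not show that their effect was larger there. Both differences rest on the same liver libraries. The liver and kidney count was 4 without kidney CCNE-TA 1, 2 without liver CCNE-TA 2, 1 without kidney CCNE-TA 3 or TA 2, and 0 without any of the other 8 libraries. H2-D1 and B2m were each called in 1 of these 12 fits (edgeR adjusted p = 0.0162 and 0.0422). The liver and lung count was 1 without liver CCNE-TA 1, CCNE-TA 3 or TA 2 and without lung CCNE-TA 1, CCNE-TA 2, TA 1 or TA 2.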

How the data were processed

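The authors deposited raw counts for each gene symbol in each library, with no normalization. Per the submitters' processing notes, the tools were TopHat2 2.0.14, Bowtie2 2.2.6 and featureCounts 1.4.6 of Subread, with build mm10. Annotation, strand setting and handling of reads with several alignments are not given in the sources used here. Per the labels' protocols, libraries were made with a TruSeq kit from column-extracted RNA. Nothing in the labels states that libraries of a group come from separate mice, so p values measure the spread between these libraries, which may be technical.

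The members, gene lists, tests and alternatives were chosen with earlier results of these data known. Any member could be named, and from each list of other genes up to 4 per tissue in order of p. All genes were fitted with edgeR 4.0.16 in R 4.3.3 (filterByExpr, TMM, robust quasi-likelihood F test), per tissue for genotype and over 18 libraries for tissue contrasts and interactions. P values were adjusted over all tested genes by Benjamini-Hochberg, with a threshold of 0.05. In simulated data with known changes, fold changes were recovered with little bias, but the share of false calls was well above the nominal one, so calls just under the threshold (H2-K1, H2-Ke6, Nlrc5 and H2-T10 in liver) are less secure than their adjusted p states. Alternatives were DESeq2 1.42.0, RLE and upper quartile scaling, no filter, a replicate block, offsets for length and GC content (splines with 4 degrees of freedom), Xist as a covariate, 1 fit of 18 libraries or of the TA libraries alone, a term for liver TA 2 and TA 3, lung without CCNE-TA 1 and TA 3, and each library left out. Same-numbered kidney libraries deviated together (r across genes 0.308, 0.486 and 0.34 for numbers 1 to 3). They also shared sex by Xist, at 818, 489 and 1.29 CPM in CCNE-TA and 909, 1056 and 2.3 CPM in TA. Whether sex or a pairing lies behind these correlations was not tested. Gene models are those of GENCODE M21 and promoter windows those of RefSeq. Columns left out of the count table: 0.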

Additional observations from a re-analysis of the deposited data

Results flagged for a closer look

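The genotype effect of 3 genes differed between tissues by an interaction term of the 18-library edgeR fit. For H2-Ke2 (Pfdn6) the log2 difference was 1.37 for liver minus kidney and 1.43 for liver minus lung. The first kept its call in 3 of 12 fits without 1 library and the second in 7 of 12. H2-K2 differed by 1.91 for liver minus lung, with an adjusted p of 0.0499, and kept its call in 4 of 12 such fits. H2-Q10 differed by 2.29 for liver minus lung and kept its call in 9 of 12. In lung, hepatocyte markers were also lower in CCNE-TA, as given above, and their part was not tested.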

How the results depend on the processing

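The number of genes called in liver, 14, was 7 with Xist as a covariate (6 higher, 1 lower). It was 6 with length and GC offsets and 9 in the fit of 18 libraries, all higher, and 4 to 14 when 1 library was left out. Of all 13811 genes, 1469 were called higher and 1517 lower with Xist, and 1290 and 1747 with the offsets. Of 17155 genes in the fit of 18 libraries, 2917 were called higher and 2631 lower. Calls over all genes in the fits without 1 library are not given here. Upper quartile scaling moved the median log2 fold change of all liver genes from 0.02 to 0.21 and the calls over all genes from 1897 higher and 2045 lower to 2610 and 1367. In lung 0 became 1 with DESeq2 and 1 in the fit of 18 libraries. Over all genes these called 17 and 6 as higher and 166 and 88 as lower. For differences of the genotype effect, DESeq2 gave 3 genes between liver and kidney and 1 between kidney and lung, and leaving out 1 library gave 0 to 4 between liver and kidney and 1 to 3 between liver and lung. Medians that moved were classical class I in liver (0.84) and nonclassical class I in liver (0.27) with length and GC offsets. Those of class II (-0.13) and classical class I (0.28, the value of H2-L) in lung moved without CCNE-TA 1 and TA 3. With 1 library left out they ran from 0.00 to 1.59 for class II in kidney, 0.17 to 1.44 for classical class I in kidney and -0.03 to 0.90 for class II in lung. H2-Ke6 in liver reversed to -0.19 with length and GC offsets. With the replicate block the liver count stayed at 14, but H2-K1 and H2-Ke6 lost their call (edgeR adjusted p = 0.122 and 0.0958) and H2-DMa and Cd74 gained one (0.0343 and 0.0381); in kidney it was 0. The same-numbered liver libraries had correlations of 0.2, -0.00177 and 0.0826 and those of lung -0.477, -0.105 and -0.592. Same-numbered lung libraries shared sex by Xist, at 294, 342 and 0.978 CPM in CCNE-TA and 472, 496 and 0.25 CPM in TA. In liver those numbered 2 did not, at 1157 and 0.47 CPM. Each deviation is from a mean of 3 libraries, which 1 outlying library shifts, so these correlations cannot decide on a pairing. The cause of the shifts between settings was not tested. With 3 libraries a group, an adjusted p that misses the threshold does not show that values were equal.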

Other observations

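Class I-like molecules encoded outside the H2 complex and stress ligands were also measured in liver. Of 8 class I-like genes tested, 0 rose and 3 fell, where 13.7% of all genes rose and 14.8% fell: Mr1, which presents vitamin metabolites to MAIT cells, by log2 -1.04 ± 0.30, Cd1d1, which presents lipids to NKT cells, by -0.72 ± 0.21, and Hfe, which takes part in iron sensing, by -0.56 ± 0.18 (edgeR adjusted p = 0.0344, 0.0369 and 0.0451). The calls were kept in 7, 7 and 4 of 15 alternatives, with adjusted p up to 0.39, 0.164 and 0.439, and all 3 were lost with the term for TA 2 and TA 3.

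Of 8 listed ligands of the activating receptor NKG2D, 2 could be tested in liver and 1 rose. Raet1e stood at 0.28, 1.32 and 0.438 CPM in TA and 13.3, 15.3 and 14 CPM in CCNE-TA liver, with no overlap and CCNE-TA libraries close together (log2 4.44 ± 0.54, edgeR adjusted p = 0.00275). It was called in all 6 fits without 1 library. In kidney and lung it stood at 0 to 0.274 CPM in every library. Copies of the Raet1 family share sequence, so the assignment of reads to this copy is uncertain.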
